A study of Homo sapiens with 6 samples.

Results

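The 3 FOXO transcription factors FOXO1, FOXO3 and FOXO4 and 7 genes known as their targets (PIK3IP1, BCL6, TSC22D3, IRS2, KLHL24, CITED2 and RICTOR) were followed in RPMI-8402 cells, an established human line of T cell leukaemia (T-ALL, per the labels). The 10 genes were taken by name from the 63677 genes of the count table, each name matched 1 gene, and all 10 were among the 15492 genes with enough counts to test. All 6 samples, labelled MYC_KO alike, expressed Cas9 stably and held guide RNAs against MYC, a growth-promoting transcription factor, that doxycycline induces, and grew in serum free of tetracycline. The groups were 3 samples that received doxycycline for 72 hours, to switch the guides on, and 3 samples that received DMSO, the solvent control. The labels describe no sample that had doxycycline without guides, so an effect of doxycycline itself and an effect of cutting MYC cannot be told apart. Neither the dose, nor whether cells were 1 clone, nor whether replicates came from separate cultures is stated, and p-values therefore rest on a spread among samples that may be only technical.

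FOXO factors bind DNA through a forkhead domain and switch on genes of cell cycle arrest, cell death, stress resistance and nutrient supply. When growth factor receptors activate PI3K, the kinase AKT phosphorylates FOXO proteins, 14-3-3 proteins bind them and they leave the nucleus, so target transcripts fall while FOXO transcripts need not change. Several targets feed back on this pathway, and in T cells FOXO1 is known for maintaining genes of homing and quiescence.

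The counts of genes summed to between 25819386 and 26214598 per doxycycline sample and between 23121255 and 25412493 per DMSO sample. MYC itself was not lower in doxycycline samples, at 459, 431 and 431 CPM (counts scaled to library size), against 409, 422 and 407 CPM in DMSO samples. Its log2 fold change was 0.09 (SE 0.0489, edgeR adjusted p = 0.160), and with upper-quartile scaling it passed as higher (0.14, edgeR adjusted p = 0.0357), as with library size alone (0.14, edgeR adjusted p = 0.0281). A transcript with a small insertion or deletion is still counted, so this level is only a partial check of the labels. Markers of T-ALL summed to 2620 to 2760 CPM in doxycycline samples and 2610 to 2710 CPM in DMSO samples over 12 genes, with CD3E, LMO1 and TAL1 among those present and CD1A and LMO2 below the level tested. Of the 10 markers tested, CD7 (0.48, edgeR adjusted p = 6.52e-07) and CD5 (0.23, edgeR adjusted p = 9.38e-04) rose and CD3G fell by 0.24 (edgeR adjusted p = 9.2e-04). Over 6 markers of B cells the sum was 16.3 to 17.2 CPM in doxycycline samples and 11.6 to 12.9 CPM in DMSO samples, with MS4A1 at 0 in every sample. Over 6 myeloid markers it was 2.17 to 2.25 CPM in doxycycline samples and 1.07 to 1.27 CPM in DMSO samples. Of these only MPO had enough counts to test. It had a mean of 1.35 CPM in doxycycline samples and 0.609 CPM in DMSO samples and rose (1.14, edgeR adjusted p = 0.0028). Over 6 stromal and epithelial markers it was 47.4 to 53 CPM in doxycycline samples and 39.9 to 40.3 CPM in DMSO samples, of which nearly all was COL1A1, while EPCAM, PDGFRA and COL1A2 were at 0. Over 6 erythroid markers it was 0.305 to 0.411 CPM in doxycycline samples and 0.262 to 0.289 CPM in DMSO samples, with HBA2 and HBB at 0. The part of these differences in the results was not tested. In bulk RNA, a change in the share of cells that express a gene and a change in RNA per cell cannot be told apart.

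Of the 10 genes, 5 rose with doxycycline and 0 fell (edgeR quasi-likelihood test, Benjamini-Hochberg adjusted p under 0.05 over all genes). The risers were 4 targets, PIK3IP1, TSC22D3, BCL6 and KLHL24, and 1 factor, FOXO4. Among all genes tested 29.3% changed, 13.8% upwards and 15.5% downwards. The same 5 genes were those whose doxycycline samples all lay above all DMSO samples, which held for 20.7% of genes tested (41.7% had no overlap in either direction). The median log2 fold change of the 10 genes was 0.17, against 0 over all genes tested. The genes were chosen with earlier results of these data known, so this count is a description of these 10 genes only. Upper-quartile scaling moved the split of called genes from 2137 higher and 2408 lower to 2871 higher and 1585 lower, and library size alone gave 2758 higher and 1606 lower. The same count of 5 members was called under both.

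**Figure D1:**
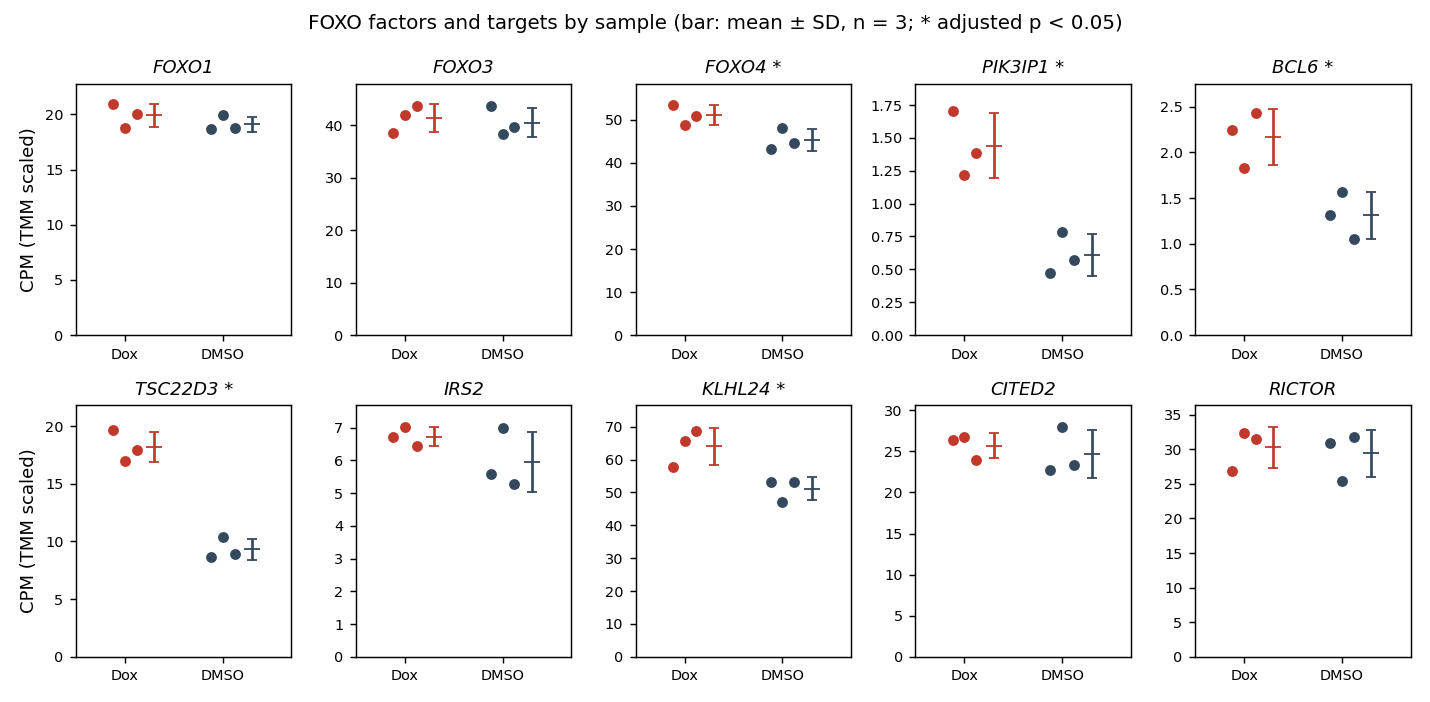
Level of each gene in CPM with TMM scaling (y axis, linear, from 0) in 3 doxycycline samples (red, left) and 3 DMSO samples (dark, right), with the mean ± SD beside the points. TSC22D3, PIK3IP1, BCL6, KLHL24 and FOXO4 have no overlap between groups, and asterisks mark an edgeR adjusted p under 0.05.

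The transcripts of FOXO1 and FOXO3 did not pass the test. FOXO1 (ENSG00000150907), the member best known in lymphocytes, stood at 20.9, 18.8 and 20.1 CPM in doxycycline samples and at 18.7, 19.9 and 18.7 CPM in DMSO samples. The groups overlapped, with a log2 fold change of 0.06 (95% interval -0.09 to 0.21, edgeR adjusted p = 0.573). FOXO3 (ENSG00000118689), a broadly expressed member tied to cell death and stress resistance, stood at 38.5, 41.9 and 43.8 CPM in doxycycline samples and at 43.6, 38.3 and 39.7 CPM in DMSO samples. Its groups also overlapped, with a log2 fold change of 0.03 (95% interval -0.10 to 0.16, edgeR adjusted p = 0.775). A difference within these intervals was not detectable here. Reads of FOXO3 are uncertain because FOXO3B is a near-identical copy. FOXO3B was counted at 10.2 ± 1.37 CPM in doxycycline samples and 9.38 ± 0.699 CPM in DMSO samples (SD, n = 3 each) and was not called (0.13, edgeR adjusted p = 0.369).

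FOXO4 (ENSG00000184481), the X-linked member of the family, was slightly higher with doxycycline. It stood at 53.6, 48.8 and 51.0 CPM in doxycycline samples and at 43.2, 48.2 and 44.7 CPM in DMSO samples. The groups did not overlap, but the lowest doxycycline sample and the highest DMSO sample were close. The mean was 51.1 ± 2.40 CPM in doxycycline samples and 45.4 ± 2.54 CPM in DMSO samples (SD, n = 3 each), which gave 0.17 as log2 fold change (SE 0.0599, 95% interval 0.05 to 0.30, edgeR adjusted p = 0.0316). The call was lost under 9 of 15 alternatives, among them DESeq2 (0.16, adjusted p = 0.0747), no filter on low counts (0.16, edgeR adjusted p = 0.0765) and a correction for GC content and length (0.10, edgeR adjusted p = 0.129). The call also needed DMSO replicates 1 (edgeR adjusted p = 0.160 when omitted) and 3 (0.0738) and doxycycline replicates 1 (0.144) and 3 (0.0821), and over all alternatives the adjusted p ran from 0.00713 to 0.160. In the authors' deposited table FOXO4 has a log2 fold change of 0.16 with an adjusted p of 0.0747, the same values as with DESeq2 here.

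Per kilobase of exon, FOXO4 was the most abundant of the 3 factors in every sample. The level per length was 14.8 ± 0.696 CPM per kb for FOXO4, 5.36 ± 0.347 for FOXO3 and 3.19 ± 0.171 for FOXO1 in doxycycline samples, and 13.2 ± 0.737 for FOXO4, 5.25 ± 0.354 for FOXO3 and 3.06 ± 0.110 for FOXO1 in DMSO samples (SD, n = 3 each). FOXO4 thus took 65.1%, 62.6% and 62.5% of the summed FOXO1, FOXO3 and FOXO4 level per length in doxycycline samples and 59.2%, 63.1% and 61.4% in DMSO samples, with overlap. FOXO6, a further family member, is left out of this sum, so these are not shares of the whole family. It was counted at 14.3 CPM in doxycycline samples and 12.3 CPM in DMSO samples over 2398 exon bases. The log2 ratio of FOXO4 to FOXO1 CPM was 1.36, 1.38 and 1.34 in doxycycline samples and 1.21, 1.27 and 1.25 in DMSO samples. These did not overlap, and the 2-sided exact permutation test gave p = 0.1, the smallest that 3 against 3 samples allow, or 0.4 adjusted over the 4 ratios compared. The other 3 ratios (FOXO4 to FOXO3, FOXO3 to FOXO1 and FOXO3B to FOXO3) overlapped between groups.

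The genes whose pattern over the 6 samples lay nearest to each factor were looked up among 9428 tested genes, by the Euclidean distance of deviations in log2 CPM. Nearest to FOXO4 were ATP2A3, a calcium pump of the endoplasmic reticulum (distance 0.0343), PPP1R16A, a phosphatase subunit (0.0389), and ATAT1, a tubulin acetyltransferase (0.0402). Nearest to FOXO1 were TBL2 (0.0292), AARS2 (0.0322) and NKX2-1 (0.0336), and nearest to FOXO3 were TANC1 (0.0323), KIF27 (0.0606) and IRAK4 (0.0669). The neighbours of FOXO1 and FOXO3 changed by at most 0.07 on the log2 scale and none was called, so these distances compare small deviations between samples. With 6 samples, such neighbours are a description only.

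TSC22D3 (ENSG00000157514), which encodes the leucine zipper protein GILZ, had the smallest p of the 10 genes. GILZ binds and restrains signalling proteins of activated T cells, and its gene answers to glucocorticoids as well as to FOXO factors. The transcript stood at 19.6, 17.0 and 17.9 CPM in doxycycline samples and at 8.65, 10.4 and 8.95 CPM in DMSO samples. Every doxycycline sample was far above every DMSO sample. The mean was 18.2 ± 1.33 CPM in doxycycline samples and 9.32 ± 0.920 CPM in DMSO samples (SD, n = 3 each), a fold of 1.95 (log2 fold change 0.96, SE 0.0882, edgeR adjusted p = 2.31e-08). It ranked 21 by p among the genes tested. The call held under all 15 alternatives, with log2 fold changes between 0.91 and 1.05. The authors' deposited table gives the same values as the DESeq2 alternative (0.95, adjusted p = 7.35e-14), so it is not a separate check.

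PIK3IP1 (ENSG00000100100), a membrane protein that inhibits the PI3K catalytic subunit and dampens T cell activation, had the largest fold of the 10 genes at a low level. Its counts were 45, 32 and 37 in doxycycline samples and 12, 19 and 13 in DMSO samples, or 1.71, 1.22 and 1.38 CPM in doxycycline samples and 0.476, 0.785 and 0.568 CPM in DMSO samples. The groups did not overlap. Counting error was wide: the exact Poisson 95% interval was 21.9 to 45.2 for the lowest doxycycline count and 11.4 to 29.7 for the highest DMSO count, and these intervals cover counting error only. The mean was 1.44 ± 0.248 CPM in doxycycline samples and 0.610 ± 0.159 CPM in DMSO samples (SD, n = 3 each), a fold of 2.35 with a 95% interval of 1.60 to 3.46 (log2 fold change 1.23, SE 0.271, edgeR adjusted p = 0.00129). The call held under all 15 alternatives (edgeR or DESeq2 adjusted p between 1.03e-04 and 0.0134). PIK3IP1-AS1, an antisense gene that shares 36 exon bases with it, had 5 to 8 counts in doxycycline samples and 4 to 6 in DMSO samples.

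BCL6 (ENSG00000113916), a repressor that controls germinal centre B cells and follicular helper T cells, was also low. Its counts were 59, 48 and 65 in doxycycline samples and 33, 38 and 24 in DMSO samples, or 2.24, 1.83 and 2.43 CPM in doxycycline samples and 1.31, 1.57 and 1.05 CPM in DMSO samples. The groups did not overlap, although the lowest doxycycline count, with an exact Poisson 95% interval of 35.4 to 63.6, and the highest DMSO count, with 26.9 to 52.2, were within counting error of each other. The log2 fold change was 0.72 (SE 0.207, edgeR adjusted p = 0.00996), a fold of 1.65 with a 95% interval of 1.23 to 2.21. The call was lost with DESeq2 (0.71, adjusted p = 0.0586), without DMSO replicate 3 (0.59, edgeR adjusted p = 0.0524) and without doxycycline replicate 3 (0.63, edgeR adjusted p = 0.0551), and over the alternatives the adjusted p lay between 0.00533 and 0.0586. PIK3IP1 and BCL6 lay among 2559 tested genes with a mean log2 CPM from 0 to 2, of which 14% rose and 1.76% fell. The 95th percentile of the log2 fold change among these genes was 0.77, which PIK3IP1 exceeded and BCL6 did not. BCL6 is also a B cell gene, and the B cell gene CD79A rose by 0.96 (edgeR adjusted p = 5.38e-05), while PAX5 and CD79B were not called and MS4A1 was at 0. The part of this in the BCL6 result was not tested.

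KLHL24 (ENSG00000114796), the substrate adaptor of a cullin 3 ubiquitin ligase, rose by less but at a high level. It stood at 57.8, 65.7 and 68.7 CPM in doxycycline samples and at 53.3, 47.2 and 53.1 CPM in DMSO samples. The groups did not overlap, with doxycycline replicate 1 the lowest of its group. The mean was 64.1 ± 5.60 CPM in doxycycline samples and 51.2 ± 3.45 CPM in DMSO samples (SD, n = 3 each), which gave 0.33 as log2 fold change (SE 0.0645, edgeR adjusted p = 5.02e-04). The call held under all 15 alternatives, with log2 fold changes between 0.27 and 0.41.

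IRS2, CITED2 and RICTOR did not pass the test, and their groups overlapped. IRS2 (ENSG00000185950), an adaptor of the insulin and IGF1 receptors, stood at 6.72, 7.02 and 6.43 CPM in doxycycline samples and at 5.59, 6.98 and 5.28 CPM in DMSO samples. DMSO replicate 2 was as high as the doxycycline samples, and the log2 fold change was 0.17 (95% interval -0.07 to 0.41, edgeR adjusted p = 0.275). CITED2 (ENSG00000164442), which binds the coactivators CBP and p300 and limits the hypoxia response, stood at 26.4, 26.8 and 24.0 CPM in doxycycline samples and at 22.7, 28.0 and 23.4 CPM in DMSO samples. Its log2 fold change was 0.06 (95% interval -0.10 to 0.21, edgeR adjusted p = 0.605). RICTOR (ENSG00000164327), the defining subunit of the AKT kinase complex mTORC2, stood at 26.9, 32.4 and 31.5 CPM in doxycycline samples and at 30.9, 25.5 and 31.8 CPM in DMSO samples. In each group 1 sample was lower than the other two, and the log2 fold change was 0.04 (95% interval -0.12 to 0.21, edgeR adjusted p = 0.719). On the fold scale the upper ends of these intervals were 1.33 for IRS2, 1.16 for CITED2 and 1.15 for RICTOR.

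Ordered by level per kilobase of exon in doxycycline samples, CITED2 followed FOXO4 at 10.1 ± 0.608 CPM per kb, then KLHL24 at 7.41 ± 0.648, FOXO3, TSC22D3 at 3.82 ± 0.279, FOXO1, RICTOR at 2.24 ± 0.218, IRS2 at 0.826 ± 0.036, PIK3IP1 at 0.378 ± 0.0653 and BCL6 at 0.365 ± 0.0516 (SD, n = 3 each). In DMSO samples TSC22D3, at 1.96 ± 0.193 CPM per kb, came after RICTOR at 2.17 ± 0.253, and PIK3IP1, at 0.160 ± 0.0417, after BCL6 at 0.221 ± 0.0440 (SD, n = 3 each). Samples of PIK3IP1 and BCL6 overlapped in both groups, and those of RICTOR and TSC22D3, and of KLHL24 and FOXO3, overlapped in DMSO samples. TSC22D3 lay above FOXO1 in all 3 doxycycline samples and below it in all 3 DMSO samples.

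**Figure D2:**
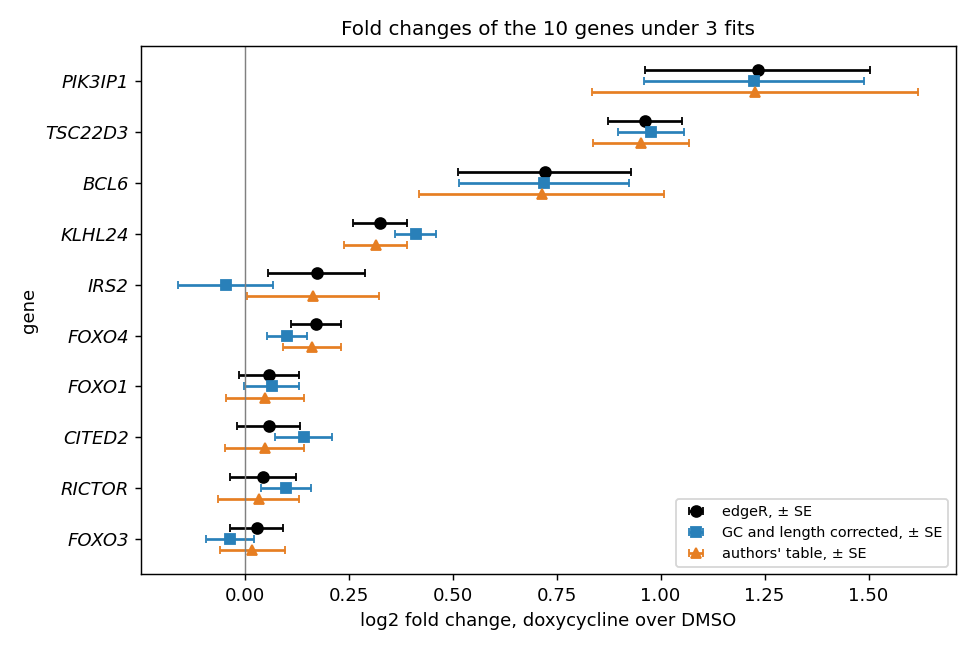
Log2 fold change of doxycycline over DMSO (x axis) for the 10 genes (y axis), with SE bars, from edgeR (black circles), from edgeR with GC content and length corrected (blue squares) and from the authors' deposited table (orange triangles). PIK3IP1, TSC22D3, BCL6 and KLHL24 stay above 0 in all 3 sets, while IRS2 and FOXO3 move below 0 after the correction.

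Fold changes in this series follow the GC content of genes, and the 10 genes cover a wide range of it. Across 10712 genes the Spearman correlation of fold change with GC content was 0.49, as a description, since genes are not replicates. Of genes in the upper tertile of GC content 31.2% rose, against 2.83% in the lower tertile. FOXO4 and IRS2 lie in the upper tertile, at 56.0% and 58.7% GC. KLHL24 and RICTOR lie in the lower tertile, at 36.7% and 36.5% GC. With GC content and length corrected, 4 of the 10 genes rose, against 10.7% of genes tested (22.1% in either direction). These were TSC22D3 (0.98, edgeR adjusted p = 6.6e-08), PIK3IP1 (1.23, edgeR adjusted p = 0.00251), BCL6 (0.72, edgeR adjusted p = 0.0151) and KLHL24 (0.41, edgeR adjusted p = 7.75e-06). IRS2 was then at -0.045 (edgeR adjusted p = 0.819) and FOXO3 at -0.035 (edgeR adjusted p = 0.702), and neither was called. In the authors' deposited results, 3 of the 10 genes passed as higher, TSC22D3, KLHL24 and PIK3IP1, against 9.79% of genes with an adjusted p there (25.4% in either direction). That table gives BCL6 a log2 fold change of 0.71 with an adjusted p of 0.0586, the same values as the DESeq2 alternative.

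**Figure D3:**
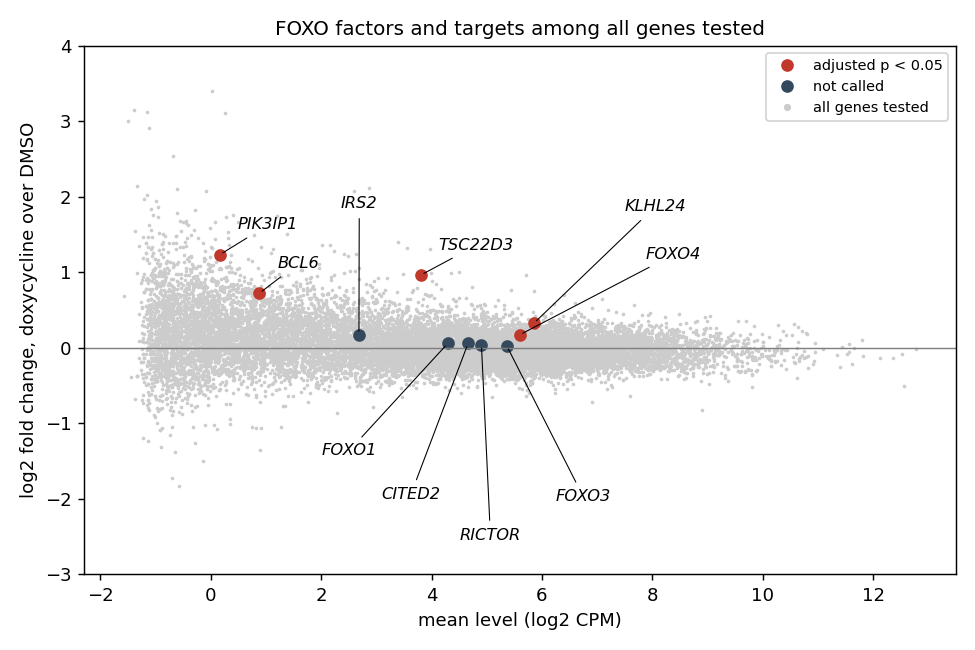
Log2 fold change of doxycycline over DMSO (y axis) against mean level in log2 CPM (x axis) for all 15492 genes tested (grey; 1 gene lies outside the axis), with the 10 genes marked. TSC22D3, at a mean log2 CPM of 3.80, stands clear of most genes of its level, and FOXO1, FOXO3, CITED2 and RICTOR lie near 0.

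The promoters of the 10 genes were searched for the FOXO motif, since FOXO factors bind such letters in many targets. RefSeq (GRCh38.p14) gave 20 windows of 250 bases before a transcript start for the 10 genes. The motif GTAAACA, on either strand, was found in 1 of these 20 windows and in 2.98% of all 35116 windows. The shorter core TAAACA, which overlaps it, was found in 2 of the 20 windows and in 11% of all windows. The 3 windows shown are the one of TSC22D3 that holds the full motif, the one of FOXO3 that holds the core only, and 1 of PIK3IP1, which had the largest fold and no match. They lie at chrX:107717063-107717312 (minus strand), chr6:108560667-108560916 (plus strand) and chr22:31292535-31292784 (minus strand), and capitals mark the motif or its core.
TSC22D3: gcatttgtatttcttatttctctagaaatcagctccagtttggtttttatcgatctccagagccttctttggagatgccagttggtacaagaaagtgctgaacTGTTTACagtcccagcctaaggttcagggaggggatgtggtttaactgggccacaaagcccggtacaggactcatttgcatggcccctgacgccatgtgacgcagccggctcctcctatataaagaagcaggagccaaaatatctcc
FOXO3: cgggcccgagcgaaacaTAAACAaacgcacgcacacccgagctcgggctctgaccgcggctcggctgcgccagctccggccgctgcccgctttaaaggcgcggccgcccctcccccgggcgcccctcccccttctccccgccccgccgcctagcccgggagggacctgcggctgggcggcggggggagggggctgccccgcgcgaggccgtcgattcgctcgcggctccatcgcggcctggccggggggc
PIK3IP1: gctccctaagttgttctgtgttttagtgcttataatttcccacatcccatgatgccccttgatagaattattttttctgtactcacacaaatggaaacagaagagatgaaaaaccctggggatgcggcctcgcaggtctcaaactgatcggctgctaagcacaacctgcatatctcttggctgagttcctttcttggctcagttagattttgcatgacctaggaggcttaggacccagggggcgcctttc
In TSC22D3 the motif is on the reverse strand and begins 147 bases before the start of a downstream transcript of the gene, 1 of 4 starts listed for it. In FOXO3 the core begins 233 bases before the second of 4 starts. The motif CAAAACA, known from insulin-responsive promoters, was found in 2 of 20 windows, of IRS2 and KLHL24, and in 4.3% of all windows. CACGTG, the E-box that MYC binds, was found in 1 of 20 windows, of CITED2, and in 6.34% of all windows. A match is only a match of letters, and the reads do not show which start was used.

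Other known FOXO targets moved in both directions. Over 6 lists with 61 genes, 49 were tested, 10 rose (20.4%), 6 fell (12.2%) and 33 were not called, against 13.8% and 15.5% of all genes, and the median log2 fold change was 0.01. With GC content and length corrected 10 rose and 4 fell of 48 tested, against 1614 and 1703 of all 15036 genes. They were partly other genes: BBC3, PINK1 and ULK1 were no longer called as higher, while BTG1, TNFSF10 and CAT were.

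Among lymphocyte targets of FOXO1 (median 0.05), 2 of 7 tested rose (28.6%) and 0 fell, against 13.8% and 15.5% of all genes. KLF2, a factor that maintains T cell quiescence and homing, stood at 21.9, 20.7 and 19.5 CPM in doxycycline samples and at 10.0, 11.6 and 9.69 CPM in DMSO samples (log2 fold change 0.99, edgeR adjusted p = 5.34e-09). S1PR1, the receptor that lets lymphocytes leave lymphoid organs and a target of KLF2, stood at 50.8, 49.5 and 51.1 CPM in doxycycline samples and at 43.6, 41.5 and 43.7 CPM in DMSO samples (0.23, edgeR adjusted p = 0.00294). Both kept their calls under all alternatives. TCF7, a factor of early T cells, did not pass (0.05, edgeR adjusted p = 0.507), nor did RAG1 (-0.27, edgeR adjusted p = 0.323), CCR7 or FOXP3. IL7R, RAG2 and CTLA4 were below the level tested.

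Among cell cycle targets (median 0.04), 2 of 9 tested rose (22.2%) and 1 fell (11.1%), against 13.8% and 15.5% of all genes. CDKN1A, the CDK inhibitor p21, had 38, 45 and 33 counts in doxycycline samples and 9, 11 and 13 counts in DMSO samples (1.67, edgeR adjusted p = 1.03e-04). CCND2, a D cyclin that FOXO factors are known to repress, had 20, 27 and 30 counts in doxycycline samples and 7, 5 and 10 counts in DMSO samples (1.66, edgeR adjusted p = 7.52e-04). GADD45A, a DNA damage response gene, fell by 0.29 (edgeR adjusted p = 0.00702), a call lost under 2 of 15 alternatives: leaving out both DMSO replicate 2 and doxycycline replicate 1 (-0.21, edgeR adjusted p = 0.0904), and the GC and length correction with a replicate block (edgeR adjusted p = 0.0502). CDKN1B, the inhibitor p27 and a classical FOXO target, stood at 82.1 ± 1.39 CPM in doxycycline samples and 81.3 ± 1.58 CPM in DMSO samples (SD, n = 3 each) and did not pass (0.01, edgeR adjusted p = 0.864). BTG1, an antiproliferative gene of lymphocytes, did not pass (0.10, edgeR adjusted p = 0.188), but did with the correction (0.23, edgeR adjusted p = 0.00376).

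Among death targets (median -0.07), 1 of 6 tested rose (16.7%) and 1 fell (16.7%), against 13.8% and 15.5% of all genes. BNIP3L, a mitophagy receptor, fell by 0.22 (edgeR adjusted p = 0.00201), but with GC content and length corrected it did not pass (-0.07, edgeR adjusted p = 0.237). BBC3, which encodes PUMA, rose by 0.54 at 1.92 ± 0.0751 CPM in doxycycline samples and 1.32 ± 0.181 CPM in DMSO samples (SD, n = 3 each; edgeR adjusted p = 0.0438), a call lost under 12 of 15 alternatives, among them without any 1 sample (edgeR adjusted p between 0.0541 and 0.177). BCL2L11, which encodes BIM, did not pass (-0.09, edgeR adjusted p = 0.437), nor did PMAIP1, which encodes NOXA (-0.13, edgeR adjusted p = 0.142, and with the correction 0.10). TNFSF10, which encodes the death ligand TRAIL, did not pass (-0.05, edgeR adjusted p = 0.431), but with the correction it was the 1 death target called, as higher (0.15, edgeR adjusted p = 0.00850).

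Among stress and metabolism targets (median -0.03), 2 of 11 tested rose (18.2%) and 2 fell (18.2%), against 13.8% and 15.5% of all genes. SESN3, a sestrin that restrains mTORC1, rose by 0.60 (edgeR adjusted p = 5.07e-04), at 8.27, 10.3 and 10.1 CPM in doxycycline samples and 6.11, 5.21 and 7.60 CPM in DMSO samples. The mitochondrial kinase PINK1 rose by 0.21 (edgeR adjusted p = 0.0341) with overlap between groups, a call lost under 6 of 15 alternatives, among them the correction (edgeR adjusted p = 0.0568) and the omission of DMSO replicates 1 (0.133) or 3 (0.132) or of doxycycline replicates 1 (0.220) or 2 (0.0523). The peroxiredoxin PRDX3 fell by 0.29 (edgeR adjusted p = 1.51e-04) and TXNIP, which limits glucose uptake, by 0.21 (edgeR adjusted p = 0.00844). With the correction PRDX3 was at -0.14 (edgeR adjusted p = 0.0216). TXNIP had no value for GC content and length and was not in that fit. SOD2 (-0.04) and CAT (0.03), antioxidant enzymes often cited as FOXO targets, did not pass. With the correction CAT passed as higher (0.15, edgeR adjusted p = 0.00898) and the peroxiredoxin PRDX5 as lower (-0.11, edgeR adjusted p = 0.0467).

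Among autophagy and atrophy targets (median 0.01), 3 of 9 tested rose (33.3%) and 1 fell (11.1%), against 13.8% and 15.5% of all genes. ULK1, the kinase that starts autophagy, rose by 0.30 (edgeR adjusted p = 5.46e-05), FBXO32, the ubiquitin ligase atrogin-1, by 0.54 (edgeR adjusted p = 0.0149) and GABARAPL1, an autophagosome protein, by 0.22 (edgeR adjusted p = 0.0436). ATG12, a protein of the autophagy conjugation system, fell by 0.27 (edgeR adjusted p = 0.00835). With GC content and length corrected only FBXO32 and GABARAPL1 of the 9 were called, against 22.1% of all genes, and ULK1 was at 0.08 (edgeR adjusted p = 0.152). With DESeq2 neither FBXO32 (adjusted p = 0.0880) nor GABARAPL1 (adjusted p = 0.149) passed. FBXO32 did not pass when DMSO replicate 1 (edgeR adjusted p = 0.0567) was omitted, nor when doxycycline replicate 1 (0.0649) was, while the call of GABARAPL1 needed DMSO replicates 1 (0.187 when omitted) and 3 (0.0512) and doxycycline replicates 2 (0.0601) and 3 (0.214). ATG12 did not pass when DMSO replicate 3 (edgeR adjusted p = 0.0540) was omitted, nor when doxycycline replicate 3 (0.0699) was.

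Among growth signalling targets (median 0.11), 0 of 7 tested rose and 1 fell (14.3%), against 13.8% and 15.5% of all genes. EIF4EBP1, the translation repressor 4E-BP1, fell by 0.15 (edgeR adjusted p = 0.0264), a call lost under 8 of 15 alternatives, among them the omission of any 1 sample but DMSO replicate 3 (edgeR adjusted p between 0.0570 and 0.113 where lost). INSR, the insulin receptor, did not pass (0.11, edgeR adjusted p = 0.159), nor did IGF1R (0.12, edgeR adjusted p = 0.0941), which passed with upper-quartile scaling (0.17, edgeR adjusted p = 0.0199) and library size alone (0.16, edgeR adjusted p = 0.0297). ERBB3 (0.46, edgeR adjusted p = 0.121) and IRS1, the paralogue of IRS2 (-0.005, edgeR adjusted p = 0.972), did not pass either.

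**Figure D4:**
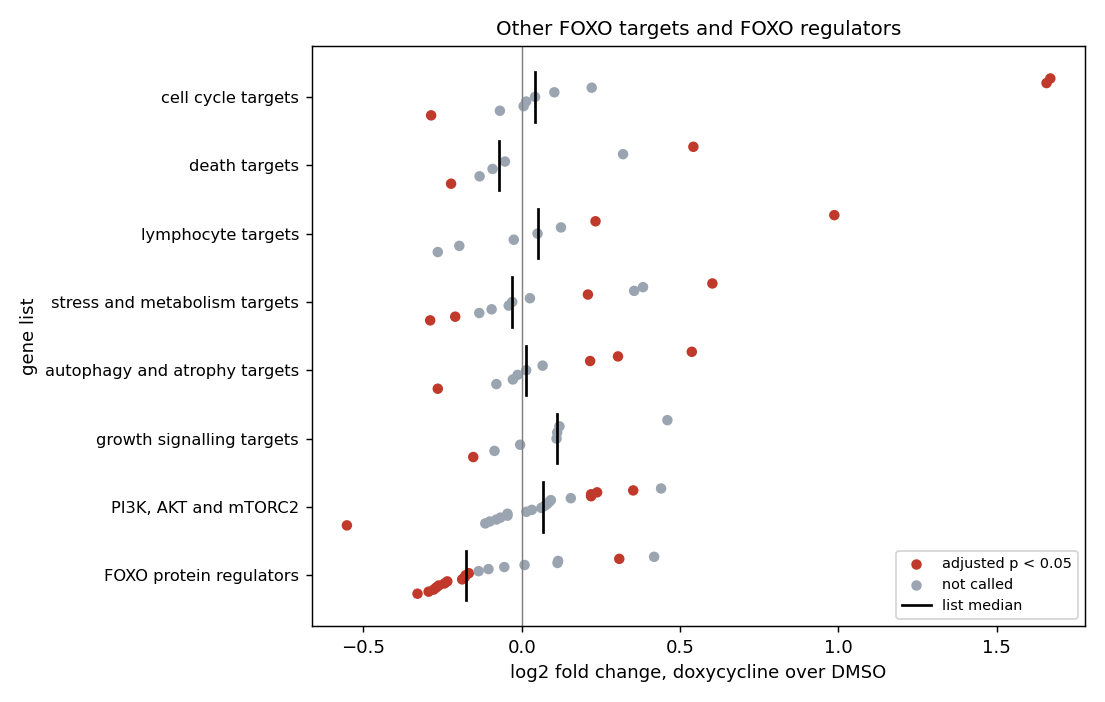
Log2 fold change of doxycycline over DMSO (x axis) for the tested genes of 6 lists of other FOXO targets and 2 lists of FOXO regulators (y axis), with genes at an edgeR adjusted p under 0.05 in red and list medians as black bars. The target lists have calls on both sides of 0, apart from the lymphocyte and growth signalling lists, and the list of FOXO protein regulators has 11 calls below 0 and 1 above.

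Upstream of the factors, 4 of 20 tested genes of PI3K, AKT and mTORC2 rose (20%) and 1 fell (5%), with a median of 0.07. Of all genes tested, 13.8% rose and 15.5% fell. With GC content and length corrected, 2 of the 20 rose and 3 fell, against 1614 and 1703 of all 15036 genes. The catalytic PI3K subunits of leukocytes PIK3CD and PIK3CG rose by 0.22 (edgeR adjusted p = 0.00144) and 0.24 (edgeR adjusted p = 0.00910). INPP5D, the phosphatase SHIP1 that removes the PI3K product, rose by 0.22 (edgeR adjusted p = 0.00186), and PRR5L, an mTORC2 partner, by 0.35 (edgeR adjusted p = 0.0224). With GC content and length corrected, PIK3CD (0.07, edgeR adjusted p = 0.242) and INPP5D (0.09, edgeR adjusted p = 0.125) did not pass. SGK3, a kinase that also phosphorylates FOXO proteins, fell by 0.55 (edgeR adjusted p = 0.0358). This call was lost under 11 of 15 alternatives, and without doxycycline replicate 1 the log2 fold change was -0.33 (edgeR adjusted p = 0.216). PIK3CG was lost without doxycycline replicate 3 (edgeR adjusted p = 0.0699), and PRR5L without DMSO replicate 1 (0.106), doxycycline replicate 2 (0.0684) or doxycycline replicate 3 (0.0936). The kinases AKT1 (0.09, edgeR adjusted p = 0.225), AKT2, PDPK1 and MTOR did not pass. With the correction, AKT1, AKT2 and MLST8, a shared mTOR subunit, were called as lower, at -0.17, -0.20 and -0.21.

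Of 19 genes whose proteins bind, export or modify FOXO proteins (median -0.18), 11 fell and 1 rose, against 15.5% and 13.8% of all genes. The fallers other than SIRT1 had a mean log2 CPM above 6, and 28% of tested genes at that level fell. At a mean log2 CPM from 4 to 6, where SIRT1 lay, 23.6% fell. Of the list's 7 genes of 14-3-3 proteins, 6 fell, and SFN, at 0.870 ± 0.108 CPM in doxycycline samples and 0.649 ± 0.0889 CPM in DMSO samples (SD, n = 3 each), was not called. YWHAB stood at 427 ± 27.3 CPM in doxycycline samples and 536 ± 40.0 CPM in DMSO samples (-0.33, edgeR adjusted p = 1.33e-04), and YWHAE at 765 ± 15.0 CPM in doxycycline samples and 938 ± 42.7 CPM in DMSO samples (-0.29, edgeR adjusted p = 1.23e-04; SD, n = 3 each). YWHAQ, YWHAG, YWHAZ and YWHAH fell by 0.27, 0.19, 0.18 and 0.17. All 6 stayed lower with upper-quartile scaling, where YWHAZ (edgeR adjusted p = 0.0611) and YWHAH (0.0793) were no longer called. YWHAZ was also lost without doxycycline replicate 1 (edgeR adjusted p = 0.0511) and YWHAH without doxycycline replicate 2 (0.0763). The ubiquitin protease USP7 fell by 0.26, the exportin XPO1 by 0.28, the ubiquitin ligase subunit SKP2 by 0.24, the arginine methyltransferase PRMT1 by 0.24 and the deacetylase SIRT1 by 0.18 (lost under 8 of 15 alternatives, among them without DMSO replicate 3, doxycycline replicate 1 or doxycycline replicate 3), and the coactivator CREBBP rose by 0.31 (edgeR adjusted p = 4.53e-05). With GC content and length corrected 8 of the 19 fell and 0 rose, against 1703 and 1614 of all 15036 genes. The median of the 19 was then -0.09, and CREBBP (0.09, edgeR adjusted p = 0.0828), YWHAZ, YWHAH and SIRT1 were not called.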

How the data were processed

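Strand-specific libraries of total RNA were sequenced with paired reads of 100 bases (DNBSEQ), per the labels' protocols. The authors deposited raw counts per gene without normalization. Their DESeq2 comparison was deposited too: per gene a log2 fold change, p-values, a Wald score and the average normalized signal. Per the submitters' processing notes, the tools were STAR 2.5.2a, featureCounts and DESeq2 1.12.4, and the build was hg19. Which annotation and strand setting featureCounts had is not given in the sources used here. Copies and overlapping genes are therefore uncertain.

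Genes were kept with filterByExpr at its defaults (15492 genes, at least 99.88% of each sample's counts), scaled with TMM and tested by quasi-likelihood in edgeR 4.0.16 under R 4.3.3 (alternative: DESeq2 1.42.0), with treatment as the only term and Benjamini-Hochberg adjustment over all genes tested. The SE was taken from the F statistic and the log2 fold change. The test was checked on simulated data. Levels are CPM with TMM scaling. Exon lengths, GC content and overlaps come from GENCODE 29 (GRCh38), found by identifier for 97.1% of the genes, and the correction fits splines with 5 degrees of freedom of GC content and log2 length per library. Where a name has 2 identifiers (TXNIP, FOXP3, PIK3R2, CD79A), the one with more counts was used.

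The members, the further lists and the tests were chosen with earlier results of these data known. The text names MYC, the 10 genes, the 3 members of each list with the smallest p, every called member of the lymphocyte, cell cycle, death and growth signalling lists, copies and paralogues with counts, and the nearest genes of each factor. Other genes were named after their values were seen, and a few listed genes are not reported here by name. The alternatives tried are other scalings, no filter, DESeq2, samples left out, a replicate block, and the GC and length correction.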

Additional observations from a re-analysis of the deposited data

How the results depend on the processing

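TSC22D3, PIK3IP1 and KLHL24 kept their direction and their call under all 15 alternatives, BCL6 under 12 and FOXO4 under 6. DESeq2 called 3 of the 10 genes, 1 death target, 2 autophagy and atrophy targets and 3 genes of PI3K, AKT and mTORC2. Of all genes it called 3498, against 4545 with edgeR, and over the 15 alternatives this number ran from 3196 to 4532. The number of growth signalling targets called was 3 under upper-quartile scaling, 2 under library size alone, and 0 where both DMSO replicate 2 and doxycycline replicate 1 were omitted. Under upper-quartile scaling (edgeR adjusted p = 0.135) and library size alone (0.1) EIF4EBP1 was not called, and IGF1R was called as higher. The number of death targets called was 1 with no filter, with those 2 samples left out, with the replicate block, with the GC and length correction and with that correction and the block. The correction left 2 autophagy and atrophy targets called with or without the block, and with the block 6 FOXO protein regulators. Of all genes, 3317 were called with the correction and 3196 with the correction and the block. Leaving out 1 sample in turn gave 3 to 5 of the 10 genes called, 1 to 2 death targets, 2 to 4 autophagy and atrophy targets, 0 to 1 growth signalling targets and 2 to 4 genes of PI3K, AKT and mTORC2. Of all genes, 3396 to 4366 were then called, against 4545 with all 6 samples. The number of the 10 genes called was 3 without DMSO replicate 3 and also without doxycycline replicate 3. The cause of these differences was not tested.

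Some genes changed sign. With the correction AKT1 was at -0.173 and called as lower, against 0.092 and not called without it, and TNFSF10 was at 0.153 and called as higher, against -0.053 and not called without it. Among genes called in neither fit, with the correction FOXO3 was at -0.035, IRS2 at -0.045, PMAIP1 at 0.10 and IGF1R at -0.048, and with the correction and the block these 4 were at -0.036, -0.040, 0.11 and -0.048. TSC22D1 was at -0.013 where both DMSO replicate 2 and doxycycline replicate 1 were omitted. Leaving out 1 sample in turn gave -0.013 to 0.084 for FOXO3, -0.001 to 0.157 for CITED2 and -0.051 to 0.123 for RICTOR.

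No pairing by replicate number was seen: deviations of samples with the same number correlated at -0.07, -0.27 and 0.10. The labels do not say whether replicate numbers pair the samples, and so few correlations cannot exclude it. With the replicate block 4 of the 10 genes were called (FOXO4 was at an edgeR adjusted p of 0.0502), and 4206 of all genes. At low counts, as for PIK3IP1 and BCL6, depth limits the precision.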

Other observations

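Of 7 paralogues and copies of the 10 genes with enough counts to test, 3 rose and 0 fell, against 13.8% and 15.5% of all genes tested, with a median log2 fold change of 0.20. After the GC and length correction 1 of the 7, TSC22D2, was called as higher. TSC22D4, a relative of TSC22D3, rose by 0.21 (edgeR adjusted p = 0.00270), and TSC22D2 rose by 0.20 (edgeR adjusted p = 0.0115), whereas TSC22D1 was not called (0.07, edgeR adjusted p = 0.423). The TSC22D2 call was lost without doxycycline replicate 3 (edgeR adjusted p = 0.0661) and where both DMSO replicate 2 and doxycycline replicate 1 were omitted (0.0535). After the GC and length correction TSC22D4 was at 0.05 (edgeR adjusted p = 0.343). CITED4, a relative of CITED2, rose by 1.121 at 0.517 ± 0.111 CPM in doxycycline samples and 0.232 ± 0.108 CPM in DMSO samples (SD, n = 3 each; edgeR adjusted p = 0.0423), a call lost under 9 of 14 alternatives, and CITED1 was not called (0.10, edgeR adjusted p = 0.815). FOXO6, a FOXO family member known mainly from the brain, was counted at 14.3 ± 2.10 CPM in doxycycline samples and 12.3 ± 2.29 CPM in DMSO samples (SD, n = 3 each; 0.23, edgeR adjusted p = 0.127). Without DMSO replicate 3 or doxycycline replicate 3 it passed as higher (0.36 and 0.34, edgeR adjusted p = 0.0123 and 0.0263). BCL6B, IRS4 and FOXO1B had too few counts to test.

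The genes whose pattern over the 6 samples lay nearest to TSC22D3, looked up after its values were seen, were MYO15B (distance 0.132), KLF2 (0.143) and NOTCH3 (0.170), with log2 fold changes of 0.99, 0.99 and 0.97. TSC22D3 and KLF2 were also the nearest genes to PIK3IP1, at larger distances of 0.400 and 0.460. Distances over 6 samples in 2 groups are a description only.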
